A study of Mus musculus with 28 samples.

Results

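The genes described here build the outer layers of the epidermis and its water barrier. A list of 47 symbols was looked up in the deposited expression table of mouse back skin, and 46 of them matched a row among the 23015 kept. Flg was not analysed here. By role they were 5 suprabasal keratins, 21 genes of the cornified envelope, 5 of the lipid barrier, 9 proteases and protease inhibitors, and 6 calcium-binding and other genes. Members were listed by name, with earlier results of these data known. For 38 of the 46, at least 2 libraries reached 1 FPKM (fragments per kilobase of transcript, adjusted for library size), and these were tested. None of the 38 passed this filter through epidermal libraries alone. The other 8 (Krt2, Flg2, Hrnr, Rptn, Lce1a1, Lce1c, Lce1m and Skint3) stayed below it.

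The study isolated cell types by flow cytometry from back skin at postnatal day 5, when hair follicles are growing into the dermis. There were 14 populations with 2 libraries each, 28 in all. The labels give every sample a mixed FVB/N, C57BI/6J and CD1 background and an age of postnatal day 5. All groups but HF-SC and HF-ORS are also labelled Lef1-RFP. Epi was the K14-H2BGFP+ fraction of an epidermal preparation, so its gate required the keratin 14 promoter reporter, which is strongest in basal keratinocytes. The rest of that line came from a dermal preparation. TAC, labelled as Shh-expressing matrix progenitors, was K14-H2BGFPLo and Lef1-RFP+. Mx (matrix) was K14-H2BGFPLo and ORS (outer root sheath) was K14-H2BGFPHi. Mc (melanocytes) was Lef1-RFP+ and CD117+, DF (dermal fibroblasts) was Lef1-RFP+, CD117- and ITGA9-, DP (dermal papilla) was Lef1-RFP+ and ITGA9Hi, and Neg was a mixture of negative cells. ZZ-DP (papillae of zigzag hairs) and G/AA-DP (papillae of guard hairs or of awl and auchene hairs) were the Sox2-GFP- and Sox2-GFP+ papilla cells of another line. G-DP (guard hair papillae) and AA/ZZ-DP (awl, auchene or zigzag hair papillae) were the Crabp1-GFP- and Crabp1-GFP+ papilla cells of a further line. In a K14-RFP Sox9-GFP line, HF-SC (bulge stem cell precursors) was K14-RFPHi, ITGA6Hi and Sox9-GFP+, and HF-ORS, labelled as the remaining ORS, was the matching Sox9-GFP- fraction. The labels do not say whether HF-SC and HF-ORS came from an epidermal or a dermal preparation, nor whether the 2 libraries of a population came from separate animals. The p-values therefore measure the spread between these libraries, which may be technical.

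Basal keratinocytes of the epidermis express keratins 5 and 14. As they leave the basal layer they switch to keratins 1 and 10, and higher up they make the proteins that transglutaminases cross-link beneath the membrane into the cornified envelope. Lamellar granules deliver lipids that are processed into the ceramide layers of the water barrier, and kallikrein proteases, held in check by inhibitors, cut the desmosomes so that dead cells are shed.

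Promoter stretches are shown for 6 members that stand for the distinct patterns of level described below. Krt10, Krtdap and Stfa3 were highest in Epi, Serpinb2 and Tgm3 in HF-ORS, and Ivl in TAC. Each is the 150 bases 5′ of the transcript start given by RefSeq (GRCm38.p6), read 5′ to 3′ on the gene's strand: Krt10 at chr11:99389365-99389514 (minus strand), Krtdap at chr7:30787755-30787904 (plus), Stfa3 at chr16:36455393-36455542 (minus), Serpinb2 at chr1:107511273-107511422 (plus; 1 of 2 starts listed), Tgm3 at chr2:130012190-130012339 (plus) and Ivl at chr3:92573736-92573885 (minus). For Krt10, Serpinb2, Tgm3 and Ivl this start lies within the annotated interval of the gene given below, which reaches further 5′. In capitals are the TATA box (TATAAA), the AP-1 motif (TGANTCA) and the AP-2 motif (GCCNNNGGC), each as found on either strand.
Krt10: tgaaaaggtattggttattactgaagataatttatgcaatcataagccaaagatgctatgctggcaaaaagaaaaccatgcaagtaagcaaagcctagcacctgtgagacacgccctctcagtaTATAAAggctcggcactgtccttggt
Krtdap: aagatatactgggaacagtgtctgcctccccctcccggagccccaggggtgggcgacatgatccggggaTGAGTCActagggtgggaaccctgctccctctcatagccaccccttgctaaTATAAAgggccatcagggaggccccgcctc
Stfa3: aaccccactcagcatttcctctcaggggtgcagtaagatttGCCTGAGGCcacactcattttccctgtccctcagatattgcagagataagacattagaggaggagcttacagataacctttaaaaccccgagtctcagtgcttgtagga
Serpinb2: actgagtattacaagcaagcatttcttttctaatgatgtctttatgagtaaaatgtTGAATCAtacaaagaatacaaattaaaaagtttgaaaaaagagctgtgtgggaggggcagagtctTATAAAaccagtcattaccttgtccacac
Tgm3: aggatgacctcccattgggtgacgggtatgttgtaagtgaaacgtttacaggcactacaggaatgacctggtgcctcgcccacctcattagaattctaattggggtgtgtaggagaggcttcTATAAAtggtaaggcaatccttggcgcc
Ivl: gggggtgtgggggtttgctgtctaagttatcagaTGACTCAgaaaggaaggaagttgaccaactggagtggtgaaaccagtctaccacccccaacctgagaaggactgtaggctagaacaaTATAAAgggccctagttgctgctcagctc

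TATAAA began 26 bases before the start in Krt10, 30 in Krtdap, 29 in Serpinb2, 28 in Tgm3 and 29 in Ivl. TGANTCA began 81 bases before the start in Krtdap, 94 in Serpinb2 and 116 in Ivl, so it was in the promoter stretch of genes with quite different patterns. The Stfa3 stretch held neither, but had GCCNNNGGC 109 bases before the start. Promoters were listed for 39 of the 46 members, 45 promoters in all, from 250 bases before to 50 after the start, and motifs were searched on both strands. TATAAA was in 35.6% of these 45, against 13.6% of all 32851 promoters listed for mouse. TGANTCA was also in 35.6%, against 7.81% of all. GCCNNNGGC was in 15.6%, against 16.6% of all, and AACCNGTT, the motif of grainyhead factors, was in 6.67%, against 2.09%. Genes with 2 starts and neighbouring paralogs share sequence, so the 45 are not independent.

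Across all genes, the summed FPKM of a library was between 285981 and 515224, and between 10951 and 12497 rows reached 1 FPKM. FPKM totals are not sequencing depths, and depth is unknown here. The log2 values of the 2 libraries of a population correlated at r = 0.884 to 0.966. The 8 basal keratinocyte markers, among them Krt5 and Krt14, summed to 25559 and 17519 FPKM in Epi, 9301 and 7435 in HF-SC, 19600 and 14017 in HF-ORS, and 4332 and 4355 in ORS. Neg is labelled as negative cells, yet its 8 basal markers summed to 1991 and 1323. In DF they summed to 560 in replicate 1 and 225 in replicate 2. Markers of melanocytes, fibroblasts and endothelium were scarce in Epi. The 7 melanocyte markers summed to 6.10 and 6.26 FPKM and the 8 fibroblast and papilla markers to 9.36 and 8.18. Of 6 endothelial markers, 4 were listed at 0 in both Epi libraries. The 7 Langerhans and skin T cell markers summed higher in Epi, to 65.4 and 52.8 FPKM.

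The epidermal differentiation and barrier genes made up 4.19% and 4.14% of all FPKM in the 2 Epi libraries. The share was 0.77% and 0.765% in HF-SC and 1.95% and 2.25% in HF-ORS. It was 0.0902% and 0.0979% in TAC, 0.098% and 0.0949% in Mx, and 0.088% and 0.059% in ORS. The Epi libraries were above all others in this share, and the HF-SC and HF-ORS libraries were above the TAC, Mx and ORS libraries. In Epi, 24 of the 46 members reached 10 FPKM in both libraries, against 22 in HF-SC, 18 in HF-ORS and 6 in ORS. In a sorted bulk sample, fewer differentiating cells and less RNA per differentiating cell cannot be told apart.

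**Figure D1:**
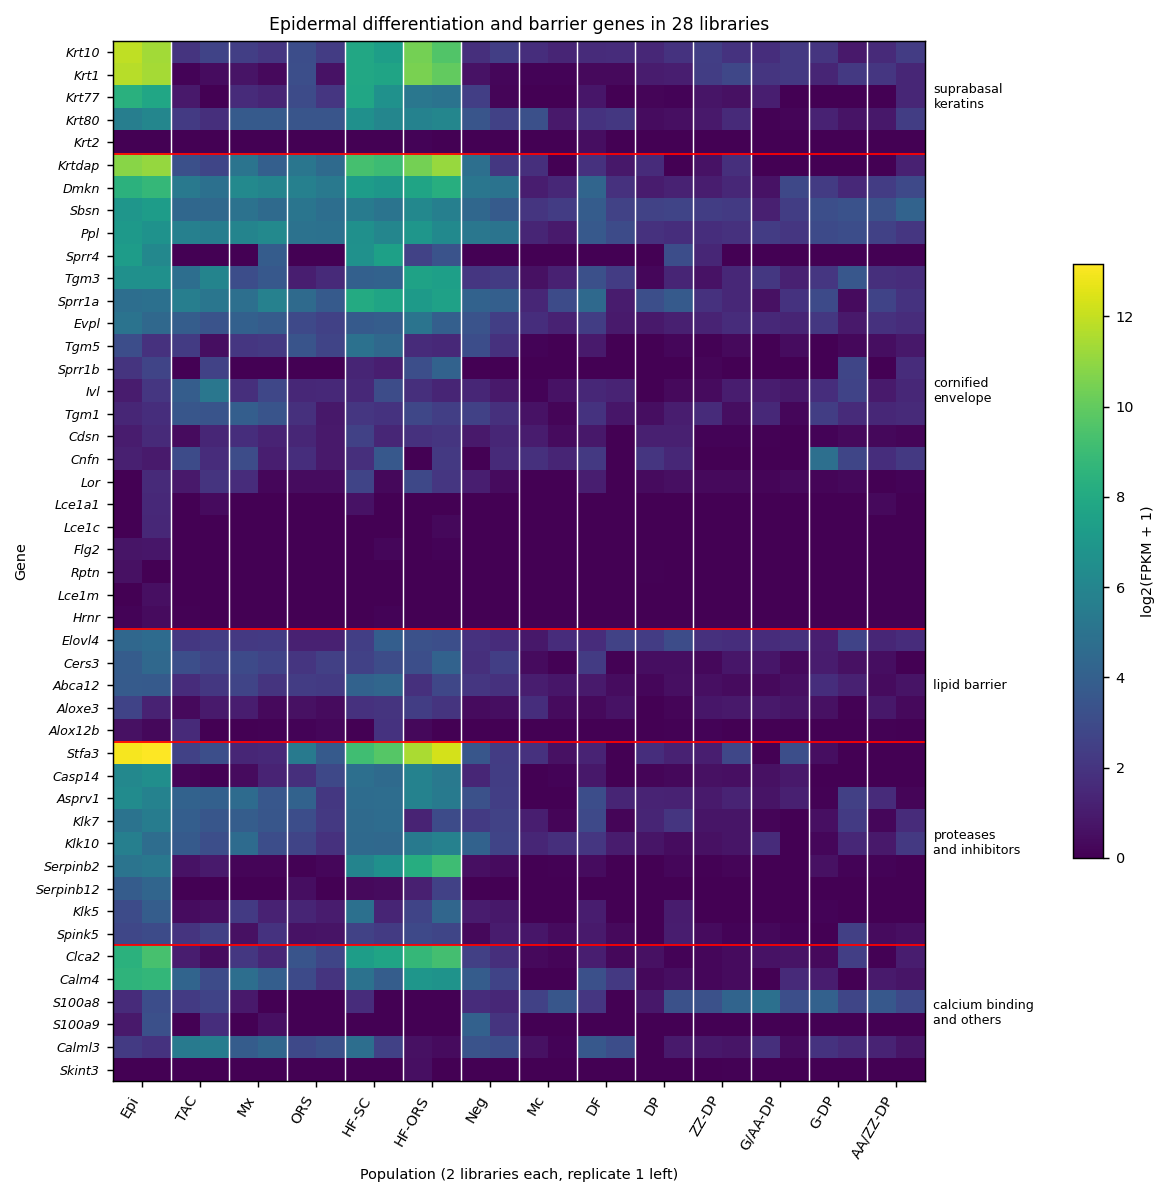
Level of each of the 46 members (rows, grouped by role) as log2(FPKM + 1) in all 28 libraries (columns, 2 per population). The keratins Krt1 and Krt10, Krtdap and Stfa3 are bright in Epi, HF-SC and HF-ORS, while Lor, Flg2, Hrnr, Rptn and the Lce1 genes are dark in nearly every library, Epi included.

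Surface epidermis was compared with the outer root sheath, the follicle's continuation of the basal layer, in the same mouse line. A gene was called where limma's Benjamini-Hochberg adjusted p, taken over all 15052 rows tested, was under 0.05 and the log2 change of FPKM + 1 was at least 1 in size. Of the 38 members tested, 27 were higher in Epi than in ORS and 0 were lower, against 4.48% of all rows called higher, 5.35% called lower and 9.83% called in either direction. The median log2 change of the 38 was 2.35, beside -0.01 over all rows. All 4 suprabasal keratins tested were higher, as were 8 of 15 cornified envelope genes, 4 of 5 lipid barrier genes, 8 of 9 proteases and inhibitors and 3 of 5 others. With 1 of the 4 Epi and ORS libraries left out, between 17 and 21 members were called, the 17 without ORS replicate 2, and 16 of the 27 calls held under every alternative tried. Epi was also set against the matrix, where 18 members were higher in Epi than in Mx and 2 were lower, beside 6.14% of all rows higher, 5.12% lower and 11.3% in either direction. Against the negative mixture, 26 were higher in Epi than in Neg and 0 lower, beside 5.41% of all rows higher, 9.23% lower and 14.6% in either direction. These comparisons share the Epi libraries, so they are not independent. With 1 library left out, the calls of Abca12, Calml3, Dmkn, Krt80, Sprr1b and Tgm1 against Mx were lost in at least 1 case (adjusted p = 0.0525 to 0.244), as were those of Aloxe3, Cers3, Evpl, Klk5, Klk7, Spink5 and Sprr1b against Neg (0.0642 to 0.396). The 13 inner root sheath and hair shaft markers summed to 59.5 and 78.2 FPKM in Epi and 379 and 313 in ORS, with 8 of them lower in Epi, and the 7 Langerhans and skin T cell markers to 65.4 and 52.8 in Epi and 135 and 104 in ORS. In Mx the 13 follicle markers summed to 2380 and 2560 FPKM, with 11 of them lower in Epi, and the 8 fibroblast and papilla markers to 493 and 420, with 3 lower in Epi. Against Neg, 7 of the 8 basal markers were higher in Epi, while all 7 melanocyte markers (626 and 833 FPKM in Neg), all 6 endothelial markers (154 and 235 in Neg), 6 of the 8 fibroblast and papilla markers (506 and 424 in Neg) and 9 of the 13 follicle markers (1046 and 735 in Neg) were lower in Epi. Their part in these differences was not tested.

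**Figure D2:**
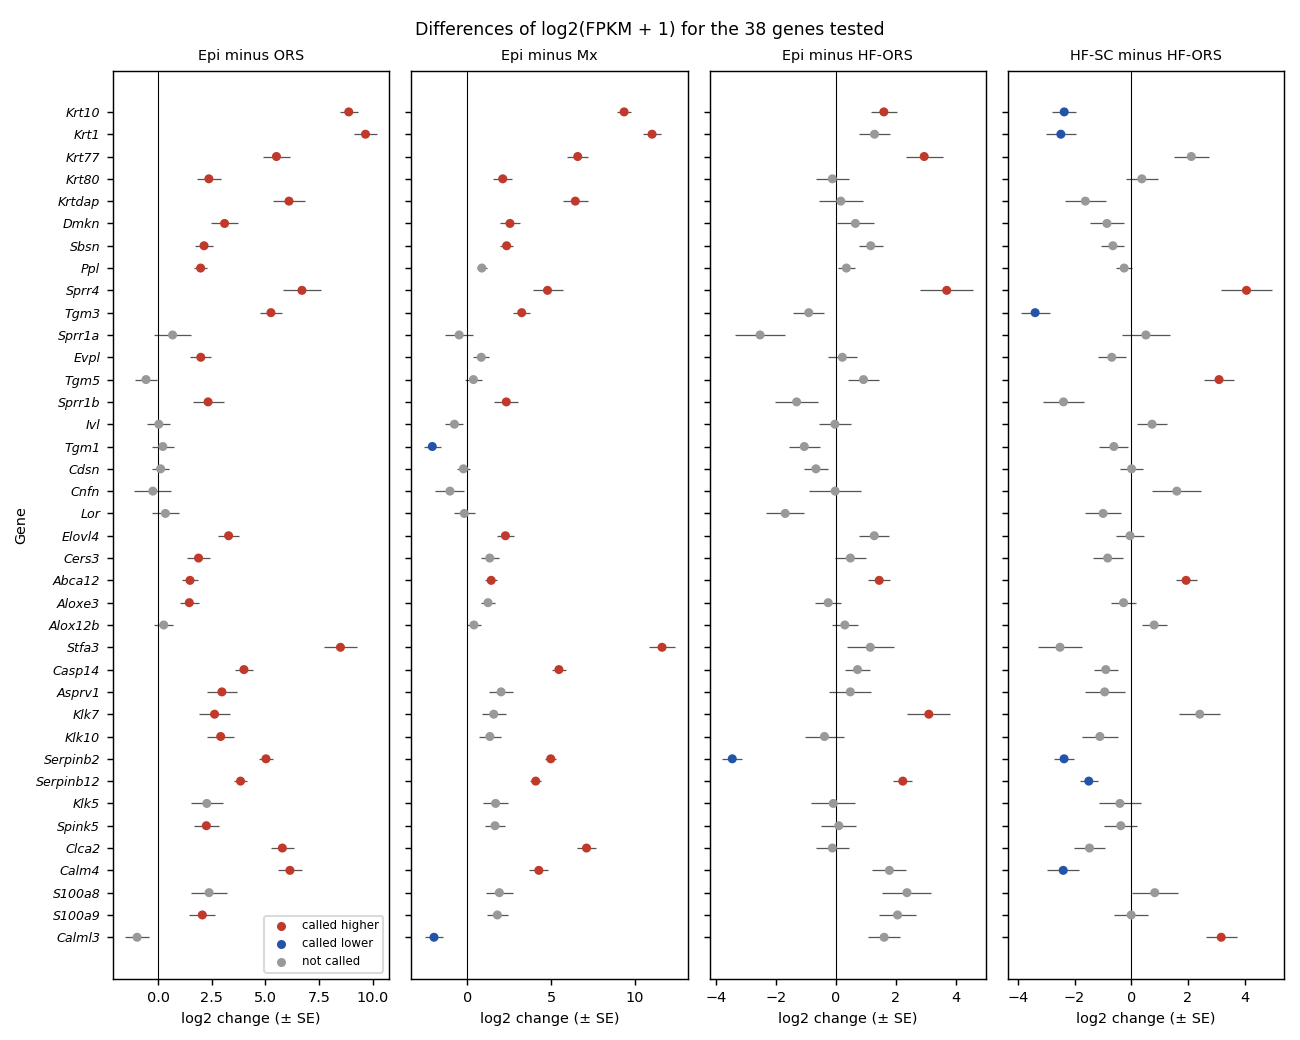
Log2 change of FPKM + 1 with its standard error (from the limma fit on 28 libraries, 2 per population) for the 38 members tested, in 4 comparisons with their own horizontal scales. Red marks genes called higher in the population named at the left of the title, blue genes called lower and grey genes not called; against ORS, red points reach 9.66 for Krt1. Where a population is listed at 0 (Sprr4, Sprr1b, S100a8 and S100a9 in ORS, Sprr1b and Serpinb12 in Mx, S100a9 in HF-SC and HF-ORS, S100a8 in HF-ORS) the plotted size depends on the pseudocount.

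The suprabasal keratins Krt1 and Krt10 had the largest log2 changes of the 38 members between Epi and ORS. Krt1, the type II keratin that marks the switch out of the basal layer (chromosome 15, 101845426 to 101850786), stood at 3434 and 2643 FPKM in Epi, 238 and 203 in HF-SC, 1481 and 1024 in HF-ORS, and 7.96 and 0.548 in ORS. It was at 0.0767 and 0.350 FPKM in TAC and 0.647 and 0.273 in Mx. The Epi libraries were higher than all others, and the ORS libraries differed from each other by a far larger ratio than the Epi pair. The log2 change of Krt1 in Epi over ORS was 9.66 ± 0.52 (standard error, as after ± throughout; limma adjusted p = 3.08e-10), and in Epi over Mx it was 11.02 ± 0.52 (adjusted p = 2.74e-11).

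Krt10, its type I partner (chromosome 11, 99385254 to 99397449), was at 3811 and 2571 FPKM in Epi, 239 and 166 in HF-SC, 1384 and 767 in HF-ORS, and 7.67 and 4.09 in ORS. Outside Epi, HF-SC and HF-ORS no library reached 8 FPKM. The 3 Sox9-line and epidermal groups did not overlap: both Epi libraries were above both HF-ORS libraries, which were above both HF-SC libraries. Epi exceeded ORS by a log2 change of 8.88 ± 0.43 (adjusted p = 1.08e-10).

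Krt77, a suprabasal type II keratin in mouse, was at 324 and 217 FPKM in Epi, 224 and 98.8 in HF-SC, 35.7 and 31.3 in HF-ORS, and 7.14 and 3.18 in ORS. In contrast to Krt1 and Krt10, its HF-SC levels were both above its HF-ORS levels, and the HF-SC and Epi ranges overlapped. Krt80, a keratin of differentiating epithelia, varied little among the surface and Sox9-line sorts, with 48.1 and 65.3 FPKM in Epi, 96.5 and 65.4 in HF-SC, 56.9 and 65.4 in HF-ORS, and 9.95 and 10.2 in ORS. Its call in Epi over ORS (log2 change 2.37 ± 0.55, adjusted p = 0.00639) was lost without Epi replicate 2 (adjusted p = 0.0752). Krt2, the keratin of the upper spinous and granular layers, was listed at 0 in 26 of 28 libraries, Epi included. It read 0.0857 FPKM in 1 HF-ORS library and 0.386 in 1 DF library.

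**Figure D3:**
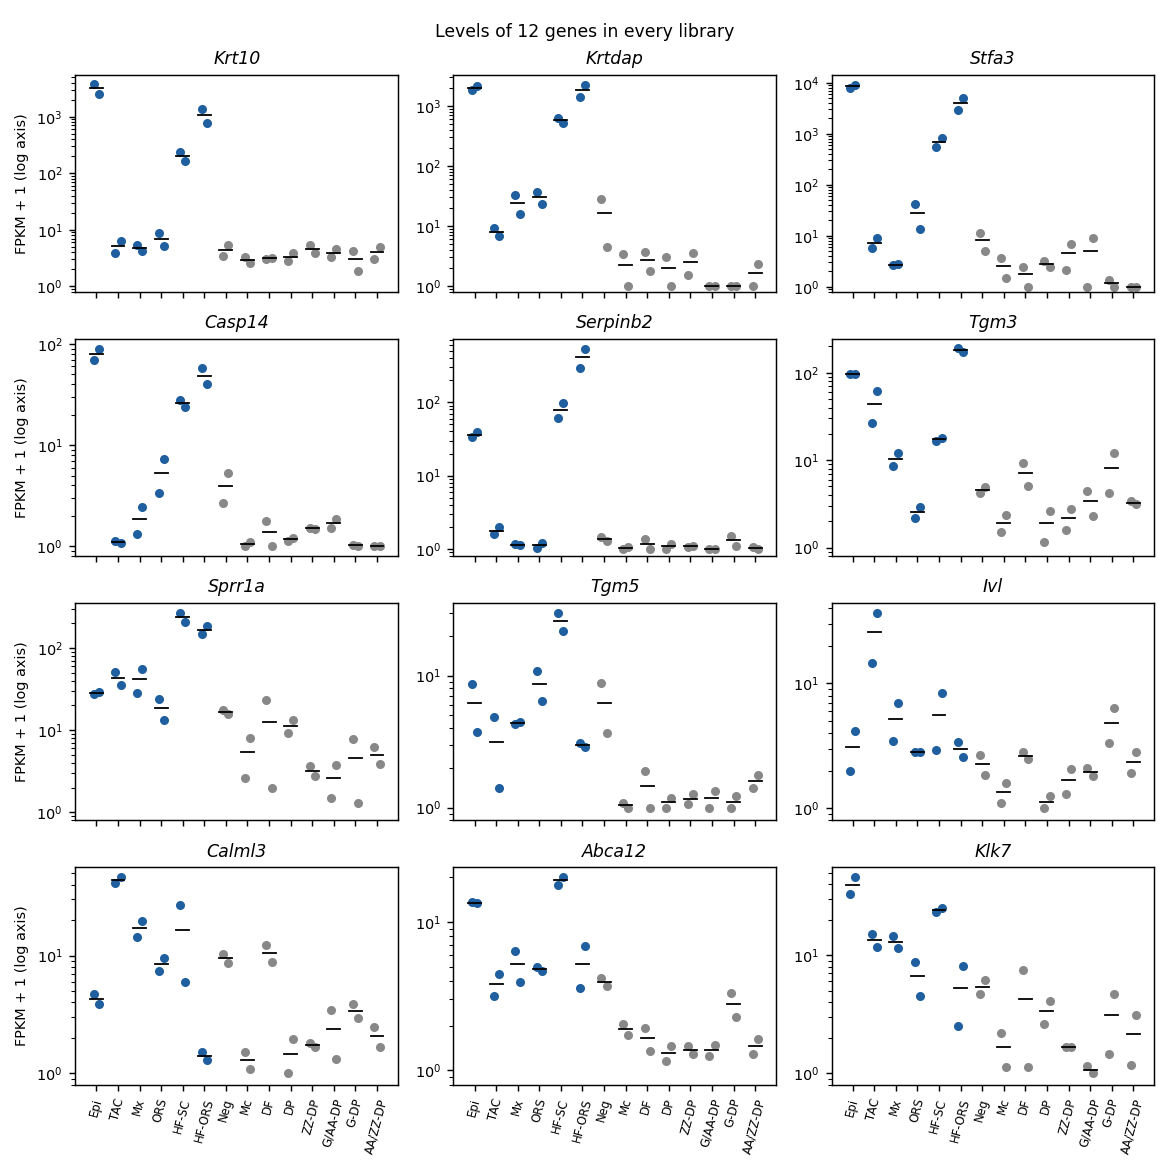
FPKM + 1 of 12 members in each library (points; blue for keratinocyte sorts, grey for the other sorts) with the mean of the 2 libraries as a bar, on log axes that differ between panels. Krt10, Krtdap, Stfa3 and Casp14 peak in Epi, Serpinb2 and Tgm3 in HF-ORS, Sprr1a, Tgm5 and Abca12 in HF-SC, and Ivl and Calml3 in TAC.

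Among cornified envelope genes, Krtdap, Dmkn and Sbsn were abundant in Epi. Krtdap, a small secreted protein of suprabasal cells (chromosome 7, 30787905 to 30791089), was at 1817 and 2173 FPKM in Epi, 632 and 527 in HF-SC, 1388 and 2269 in HF-ORS, and 35.6 and 22.1 in ORS. Its Epi and HF-ORS ranges overlapped, and both were above HF-SC. Dmkn (dermokine) was at 356 and 433 FPKM in Epi, 152 and 124 in HF-SC, 207 and 301 in HF-ORS, and 52.5 and 38.6 in ORS. Sbsn (suprabasin) was at 119 and 153 FPKM in Epi, 44.1 and 32.4 in HF-SC, 70.1 and 50.9 in HF-ORS, and 34.2 and 26 in ORS. Krtdap, Dmkn and Sbsn are neighbours on chromosome 7, and all 3 were higher in Epi than in ORS, with log2 changes of 6.10 ± 0.73 (adjusted p = 5.61e-06), 3.10 ± 0.61 (adjusted p = 0.00143) and 2.14 ± 0.41 (adjusted p = 0.00102).

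The plakin scaffold genes were expressed more evenly. Ppl (periplakin) was at 140 and 105 FPKM in Epi, 52.5 and 47.7 in TAC, 59.6 and 72.8 in Mx, and 30.7 and 29.2 in ORS. All sorted keratinocyte groups thus had at least 29.2 FPKM of it. Ppl was higher in Epi than in ORS (log2 change 1.98 ± 0.29, adjusted p = 7.15e-05). Evpl (envoplakin) encodes its partner. Evpl was at 31.3 and 20.8 FPKM in Epi, 12.5 and 14.0 in HF-SC, 32.2 and 14.8 in HF-ORS, and 6.62 and 4.88 in ORS. Its call in Epi over ORS (adjusted p = 0.00884) was lost without Epi replicate 1 or ORS replicate 2 (log2 change 1.71 to 1.80).

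Several envelope genes of the granular and cornified layers were at or near 0 in Epi, unlike Tgm3, Casp14 and Asprv1, described below. Lor (loricrin), the main envelope protein of mature epidermis, was at 0 and 1.93 FPKM in Epi, 5.49 and 0.197 in HF-SC, 6.24 and 3.25 in HF-ORS, and 0.346 and 0.355 in ORS. Flg2 was at 0.697 and 0.748 FPKM in Epi, Hrnr at 0.0784 and 0.303, and Rptn at 0.497 and 0, all filaggrin-related genes. Lce1a1, Lce1c and Lce1m, late cornified envelope genes, were listed at 0 in Epi replicate 1 and at 1.83, 1.77 and 0.455 in Epi replicate 2. Cdsn (corneodesmosin, a glue of the cornified cells) was at 1.0 and 1.96 FPKM in Epi and 1.70 and 0.858 in ORS, and Cnfn (cornifelin) at 1.24 and 0.945 in Epi and 2.26 and 0.875 in ORS. Cnfn was higher elsewhere, at 27.5 and 5.72 FPKM in G-DP and 2.44 and 11.2 in HF-SC. Lor, Cdsn and Cnfn were not called in any of the 8 comparisons. Libraries were amplified from 6 ng of RNA, and a value of 0 can be a failed estimate.

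Involucrin and the transglutaminases each had a pattern of their own across the sorts. Ivl (involucrin, an early envelope precursor; chromosome 3, 92570899 to 92573790) was at 0.992 and 3.17 FPKM in Epi, 13.7 and 35.8 in TAC, 2.47 and 5.93 in Mx, and 1.81 and 1.82 in ORS. Both TAC libraries were above every other library of the series. Tgm1, the membrane-bound transglutaminase of keratinocytes, was at 1.67 and 2.31 FPKM in Epi, 10.5 and 9.72 in TAC, 14.1 and 9.57 in Mx, and 2.55 and 0.833 in ORS. It was lower in Epi than in Mx (log2 change -2.09 ± 0.51, adjusted p = 0.0082), a call lost without Epi replicate 1 or Mx replicate 1 (adjusted p = 0.079 to 0.0887).

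Tgm3, the transglutaminase of the hair follicle and upper epidermis (chromosome 2, 129987794 to 130050399), was at 95.7 and 95.4 FPKM in Epi, 25.8 and 60.3 in TAC, 7.50 and 11.2 in Mx, and 1.17 and 1.94 in ORS. In the Sox9 line it was at 15.7 and 17.0 FPKM in HF-SC and 189 and 172 in HF-ORS, the highest of all libraries. Tgm5, another epidermal transglutaminase, ran the other way, with 28.9 and 20.9 FPKM in HF-SC and 2.08 and 1.89 in HF-ORS. It was at 7.57 and 2.73 FPKM in Epi and 9.78 and 5.47 in ORS. Of the 3 enzymes, Tgm3 was called higher in Epi than in ORS (log2 change 5.26 ± 0.52, adjusted p = 4.46e-07), while Tgm1 and Tgm5 were not called (adjusted p = 0.95 and 0.681).

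The small proline-rich genes, whose products are cross-linked into envelopes, also split. Sprr1a was highest in the Sox9 line, at 267 and 205 FPKM in HF-SC and 145 and 182 in HF-ORS. It was at 26.4 and 28.0 FPKM in Epi, 49.2 and 34.7 in TAC, 27.1 and 54.3 in Mx, and 22.6 and 12.2 in ORS, and it was not called in any of the 8 comparisons. Sprr4 was at 153 and 69.4 FPKM in Epi and 99.5 and 178 in HF-SC, whose ranges overlapped, and at 5.14 and 9.38 in HF-ORS. It was listed at 0 in both libraries of TAC, ORS and Neg, and Epi was called higher than ORS (adjusted p = 2.21e-05). Sprr1b was at 2.89 and 5.47 FPKM in Epi, 1.60 and 1.19 in HF-SC, and 7.95 and 16.4 in HF-ORS, so that HF-ORS was its highest population, and it was listed at 0 in both ORS libraries. Its call in Epi over ORS (adjusted p = 0.0447) was lost when any 1 of the 4 libraries was left out (adjusted p = 0.0908 to 0.268).

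The lipid barrier genes were moderate in level. Elovl4, which makes the very long fatty acids of skin ceramides, was at 20.3 and 23.1 FPKM in Epi, 4.36 and 14.3 in HF-SC, 8.65 and 7.97 in HF-ORS, and 1.31 and 1.33 in ORS. Both Epi libraries were above all others, and Epi exceeded ORS by a log2 change of 3.28 ± 0.50 (adjusted p = 9.51e-05). Cers3, the ceramide synthase that uses those fatty acids, was at 13.2 and 20.8 FPKM in Epi, 4.92 and 7.46 in HF-SC, 7.93 and 16.7 in HF-ORS, and 3.10 and 4.54 in ORS.

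Abca12, the transporter that loads lipids into lamellar granules, was at 12.5 FPKM in both Epi libraries, 16.8 and 19.2 in HF-SC, 2.56 and 5.88 in HF-ORS, and 3.98 and 3.66 in ORS. Its HF-SC libraries were above all others. Aloxe3, a lipoxygenase that acts with Alox12b on the linoleate of skin ceramides, was at 5.23 and 1.36 FPKM in Epi and 0.524 and 0.287 in ORS. In HF-SC it was at 2.67 and 2.96 FPKM and in HF-ORS at 4.30 and 2.98. Its partner Alox12b was under 3 FPKM in every library, with 0.515 and 0.212 in Epi, and was not called in any of the 8 comparisons. The calls of Cers3 (adjusted p = 0.0234), Abca12 (0.00987) and Aloxe3 (0.039) in Epi over ORS were each lost when some libraries were left out. For Cers3 these were ORS replicate 1, ORS replicate 2 or Epi replicate 2 (adjusted p = 0.0702 to 0.202), for Abca12 any of the 4 libraries (0.0557 to 0.0825), and for Aloxe3 Epi replicate 1 or either ORS library (0.117 to 0.552).

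Among proteases and inhibitors, Stfa3 was the most abundant member of the whole list. It encodes a stefin A, an inhibitor of cysteine cathepsins (chromosome 16, 36450537 to 36455392). Its level was 8026 and 9203 FPKM in Epi, 556 and 828 in HF-SC, 2920 and 5145 in HF-ORS, and 41.5 and 12.4 in ORS. It was at 4.76 and 7.90 FPKM in TAC and 1.62 and 1.85 in Mx, and Epi exceeded ORS by a log2 change of 8.49 ± 0.78 (adjusted p = 1.81e-07). Stefin A genes are near-identical copies of each other on chromosome 16, so fragments may have been divided between them, and the value for Stfa3 alone is uncertain.

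Casp14, the caspase of the granular layer that takes part in filaggrin processing, was at 68.7 and 88.7 FPKM in Epi, 27.0 and 22.7 in HF-SC, 56.2 and 39.2 in HF-ORS, and 2.37 and 6.25 in ORS. Both Epi libraries were above all others (log2 change over ORS 4.0 ± 0.42, adjusted p = 1.09e-06). Casp14 was above 10 FPKM in Epi, HF-SC and HF-ORS, where Flg2 was below 1 FPKM. Asprv1, a retroviral-like aspartic protease of the granular layer, was at 81.0 and 56.8 FPKM in Epi, 24.1 and 25.5 in HF-SC, 56.9 and 41.1 in HF-ORS, and 16.6 and 3.38 in ORS. The Asprv1 call in Epi over ORS (adjusted p = 0.00723) was lost without Epi replicate 1 or ORS replicate 2 (adjusted p = 0.0821 to 0.203).

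The kallikreins are serine proteases, and Klk5 and Klk7 cut the desmosomes of cornified cells. Klk7 was at 31.7 and 44.8 FPKM in Epi, 14.1 and 10.6 in TAC, 13.6 and 10.5 in Mx, and 7.70 and 3.49 in ORS. Klk10 was at 50.7 and 25.4 FPKM in Epi, 21.7 and 21.1 in HF-SC, 41.7 and 53.3 in HF-ORS, and 5.59 and 2.64 in ORS. Both were called higher in Epi than in ORS (adjusted p = 0.0209 for Klk7 and 0.0037 for Klk10). The Klk7 call was lost without Epi replicate 1, Epi replicate 2 or ORS replicate 2 (adjusted p = 0.0695 to 0.222), and the Klk10 call without Epi replicate 1 or ORS replicate 2 (0.0731 to 0.0777). Klk5 was at 6.98 and 13.7 FPKM in Epi and 1.55 and 0.977 in ORS, and was not called there (adjusted p = 0.0553). In HF-SC it was at 28.3 and 1.60 FPKM and in HF-ORS at 5.42 and 19.6. Spink5, which encodes the inhibitor LEKTI that restrains these kallikreins, was at 5.05 and 3.94 FPKM in HF-SC and 6.38 and 5.74 in HF-ORS. In Epi it was at 6.01 and 7.09 FPKM, and in ORS at 0.562 and 0.611. Its call (adjusted p = 0.0129) was lost when any 1 of the 4 libraries was left out (adjusted p = 0.0608 to 0.0913).

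The serpins formed a contrast of their own. Serpinb2, known as plasminogen activator inhibitor 2 (chromosome 1, 107500892 to 107525600), was at 32.3 and 38.3 FPKM in Epi, 60.5 and 96.4 in HF-SC, and 297 and 535 in HF-ORS, against 0.0375 and 0.190 in ORS. The 3 groups did not overlap, and HF-ORS was above every other library of the series. Serpinb12 was at 13.5 and 18.8 FPKM in Epi, 0.258 and 0.292 in HF-SC, 1.21 and 4.85 in HF-ORS, and 0.401 and 0 in ORS. Both were higher in Epi than in ORS, by log2 changes of 5.02 ± 0.34 (adjusted p = 3.34e-09) for Serpinb2 and 3.84 ± 0.32 (adjusted p = 6.05e-08) for Serpinb12, and neither call was lost under any alternative.

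Of the remaining members, Calm4, a calmodulin-like protein of differentiating keratinocytes, was at 371 and 415 FPKM in Epi, 30.6 and 13.8 in HF-SC, 119 and 107 in HF-ORS, and 6.73 and 3.02 in ORS. Epi exceeded ORS by a log2 change of 6.14 ± 0.57 (adjusted p = 2.16e-07). Calml3, a related calmodulin-like gene beside it on chromosome 13, was at 3.67 and 2.86 FPKM in Epi, 40.3 and 45.4 in TAC, 13.5 and 18.5 in Mx, and 6.41 and 8.45 in ORS. Both TAC libraries were above every other library, whereas for Calm4 both Epi libraries were. Calml3 was lower in Epi than in Mx (log2 change -1.98 ± 0.55, adjusted p = 0.0186), a call lost when any 1 of the 4 libraries was left out (adjusted p = 0.0525 to 0.162).

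The row named Clca2, of the chloride channel accessory family, was at 338 and 650 FPKM in Epi, 163 and 206 in HF-SC, 438 and 593 in HF-ORS, and 9.60 and 5.82 in ORS. Its position in the table is that of the RefSeq gene Clca3a2, for which Clca2 is an older name. Epi exceeded ORS by a log2 change of 5.79 ± 0.54 (adjusted p = 2.48e-07). Skint3, of a family whose founding member selects gamma delta T cells of the epidermis, was listed at 0 in 25 of 28 libraries and reached at most 0.462 FPKM.

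S100a8 and S100a9, whose products pair as calprotectin in stressed keratinocytes and in neutrophils, did not move together across the sorts. S100a8 was at 2.12 and 7.63 FPKM in Epi and was listed at 0 in both libraries of ORS and HF-ORS. It was at 28.4 and 7.86 FPKM in G/AA-DP, 8.45 and 18.0 in ZZ-DP, 16.1 and 5.62 in G-DP, and 11.4 and 6.41 in AA/ZZ-DP, where S100a9 was listed at 0 in all 8 libraries. S100a9 was at 0.878 and 8.26 FPKM in Epi and 16.2 and 2.99 in Neg. Its call in Epi over ORS, where it was listed at 0 (adjusted p = 0.0323), was lost without Epi replicate 2 or either ORS library (adjusted p = 0.145 to 0.544). The 11 neutrophil and myeloid markers in the table summed to 5.05 and 6.17 FPKM in Epi, 39.5 and 62.5 in Neg, 20.2 and 11 in G/AA-DP and 21.0 and 5.95 in ZZ-DP. One of them, the neutrophil granule gene Camp, was at 13.2 and 4.15 FPKM in G/AA-DP and 13.9 and 0.519 in ZZ-DP and was listed at 0 in Epi, while Ngp, another granule gene, was listed at 0 in those libraries. Itgam, another of the 11, was called higher in Epi than in ORS, at 1.59 and 1.11 FPKM in Epi and 0 in ORS (adjusted p = 0.0111). The part of such cells in the S100a8 and S100a9 levels was not tested.

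The Sox9-GFP+ and Sox9-GFP- keratinocytes were compared within their own line. Of the 38 members, 4 were higher in HF-SC than in HF-ORS and 6 were lower, beside 2.66% of all rows higher, 1.73% lower and 4.4% in either direction. The lower genes were Krt1, Krt10, Tgm3, Serpinb2, Serpinb12 and Calm4. The higher ones were Tgm5, Sprr4, Abca12 and Calml3. Genes of the same role therefore lay on both sides, as with the transglutaminases. From the levels given above, Tgm3 differed by a log2 change of -3.39 ± 0.52 (adjusted p = 0.000397) and Tgm5 by 3.10 ± 0.52 (adjusted p = 0.0011). Serpinb2 differed by -2.37 ± 0.34 (adjusted p = 0.000223) and Krt10 by -2.36 ± 0.43 (adjusted p = 0.00211). Calml3 was at 25.8 and 4.91 FPKM in HF-SC and 0.502 and 0.286 in HF-ORS (log2 change 3.18 ± 0.55, adjusted p = 0.00126). Klk7 was at 22.2 and 24.0 FPKM in HF-SC and 1.52 and 7.02 in HF-ORS without being called (adjusted p = 0.0619).

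Between 5 and 13 members were called in HF-SC against HF-ORS with 1 library left out, the 5 without HF-ORS replicate 1. Without that library Krt10 (adjusted p = 0.059) and Abca12 (0.0816) were not called. Krt1 and Sprr4 were not called without HF-ORS replicate 1 or HF-SC replicate 2 (adjusted p = 0.0643 to 0.107). Calm4 was not called without either HF-ORS library or HF-SC replicate 2 (0.0568 to 0.187), nor Serpinb12 without HF-ORS replicate 2 (0.121). With a pseudocount of 0.1 in place of 1, Serpinb2 (0.0965) and Tgm5 (0.0769) were not called, so Tgm3 and Calml3 were the 2 calls that held under every alternative. The basal keratins ran with the lower genes, Krt14 being at 1571 and 1186 FPKM in HF-SC and 3882 and 2941 in HF-ORS without being called (adjusted p = 0.188). The 5 upper follicle and sebaceous markers in the table summed to 345 and 314 FPKM in HF-SC and 59.4 and 59.7 in HF-ORS. The 13 inner root sheath and hair shaft markers summed to 228 and 213 in HF-SC and 135 and 130 in HF-ORS. Their part in these differences was not tested.

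Epi and HF-ORS come from different lines, so that line and population cannot be told apart. Of the 38, 6 were higher in Epi than in HF-ORS and 1 was lower, beside 1.16% of all rows higher, 2.89% lower and 4.05% in either direction. The higher genes were Krt10, Krt77, Sprr4, Abca12, Klk7 and Serpinb12, and the lower one was Serpinb2 (log2 change -3.47 ± 0.34, adjusted p = 1.19e-06). Serpinb12 (log2 change 2.24 ± 0.32, adjusted p = 0.000146) and Serpinb2 were the 2 calls that held under every alternative. With Epi replicate 1, Epi replicate 2 or HF-ORS replicate 1 left out, 3 or 4 members were called in place of 7. Abca12 and Klk7 were lost without any of these 3 libraries (adjusted p = 0.0713 to 0.358), Sprr4 without Epi replicate 1 or HF-ORS replicate 1 (0.17 to 0.213), Krt77 without Epi replicate 1 (0.1), and Krt10 without either Epi library or HF-ORS replicate 2 (0.0765 to 0.326). Of the 8 fibroblast and papilla markers, which summed to 9.36 and 8.18 FPKM in Epi and 185 and 295 in HF-ORS, 4 were lower in Epi, as were 5 of the 13 inner root sheath and hair shaft markers (59.5 and 78.2 in Epi and 135 and 130 in HF-ORS). The part of these markers' cells in the difference was not tested. HF-ORS is labelled as outer root sheath, yet for Krt1, Krt10, Krtdap and Stfa3 its libraries were far above those of ORS in the K14-H2BGFP line, as the levels above show, and this difference was not tested.

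**Figure D4:**
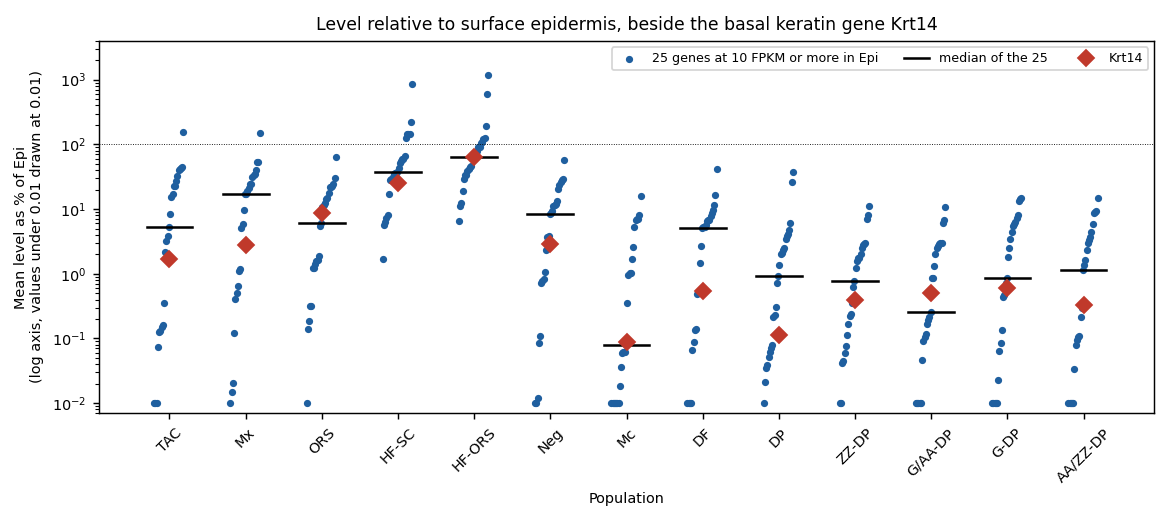
Mean level (n = 2) in each other population as a percentage of the mean in Epi, on a log axis, for the 25 members averaging 10 FPKM or more in Epi (blue points, those under 0.01% drawn at 0.01), their median (bar) and the basal keratin gene Krt14 (red diamond). In HF-ORS the median, 64.4%, lies close to Krt14 at 63.5%, whereas in Mx the median, 16.9%, lies above Krt14 at 2.81%. The 25 were picked by their Epi level, which can lower these percentages.

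The 25 members that averaged 10 FPKM or more in Epi were set beside Krt14 in each population, as a description. Picking by Epi level left out members higher in other sorts, such as Ivl, Calml3, Tgm1 and Tgm5, which can lower the percentages. The median level of the 25 was 37.3% of Epi in HF-SC and 64.4% in HF-ORS, where Krt14 was at 25.6% and 63.5%. In ORS the median was 6.1%, with Krt14 at 8.61%. In TAC, Mx and Neg the median was 5.32%, 16.9% and 8.45%, with Krt14 at 1.68%, 2.81% and 2.93%. Individual members ranged from 0% to 150% in Mx and from 6.54% to 1180% in HF-ORS, the upper end being Serpinb2.

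Within the follicle, Mx was set against ORS. Of the 38, 3 were higher in Mx than in ORS and 1 was lower, beside 1.2% of all rows higher, 2.64% lower and 3.83% in either direction. The higher genes were Tgm1 (log2 change 2.31 ± 0.51, adjusted p = 0.00995), Tgm3 (2.01 ± 0.52, adjusted p = 0.0289) and Ppl (1.11 ± 0.29, adjusted p = 0.0341), and the lower one was Stfa3 (-3.12 ± 0.78, adjusted p = 0.0236). With 1 library left out, 0 to 2 members were called: 0 without Mx replicate 2, 1 without Mx replicate 1, and 2 without either ORS library. The adjusted p of the calls so lost was 0.0529 to 0.337. The 13 inner root sheath and hair shaft markers summed to 2380 and 2560 FPKM in Mx and 379 and 313 in ORS, and their part in these levels was not tested.

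In TAC, 1 member, Ivl, was called higher than in Mx and 0 were lower (log2 change 2.24 ± 0.54, adjusted p = 0.0411), beside 1.04% of all rows higher, 0.233% lower and 1.27% in either direction. That call was lost without Mx replicate 1, Mx replicate 2 or TAC replicate 2 (adjusted p = 0.0826 to 0.442). The 8 fibroblast and papilla markers summed to 521 and 470 FPKM in TAC and 493 and 420 in Mx, and 7 of the 8 were called higher in TAC. The 7 melanocyte markers summed to 261 and 164 in TAC and 28.3 and 26 in Mx, and the part of either cell type in the Ivl difference was not tested.

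In the dermal sorts most members were under 10 FPKM, and the 46 summed to 151 and 50.02 FPKM in DF and 40.4 and 68.9 in DP. In DF, 24 members reached 1 FPKM in replicate 1 and 13 in replicate 2, and 5 and 0 reached 10. In DP, 12 and 18 reached 1 FPKM, and 0 and 1 reached 10. Of the 38, 4 were higher in DF than in DP (Calm4, Calml3, Ppl and Tgm3) and 0 were lower, beside 4.25% of all rows higher, 2.44% lower and 6.69% in either direction. Calml3 was at 11.3 and 7.77 FPKM in DF and 0 and 0.939 in DP (log2 change 2.90 ± 0.55, adjusted p = 0.00185), and its call held under every alternative. Ppl was at 11.9 and 6.97 FPKM in DF and 2.64 and 2.25 in DP. Without DF replicate 1 only 1 member was called and Ppl was lost (adjusted p = 0.0555), and without DP replicate 1 there were 2. Tgm3 was lost without DF replicate 1 or DP replicate 1 (0.245 to 0.286), and Calm4 without DF replicate 1 or either DP library (0.0622 to 0.208). Keratinocyte and melanocyte markers moved with this difference. Krt14 was at 46.3 and 11 FPKM in DF and 2.48 and 9.54 in DP, and the 8 basal markers summed to 560 and 225 in DF and 107 and 100.4 in DP. The 7 melanocyte markers summed to 1321 and 1267 in DF and 16.5 and 23.7 in DP. Their part in it was not tested.

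Ranked by mean level, 17 of the 38 members were highest in Epi, 8 in HF-SC, 7 in HF-ORS, 2 in TAC, and 1 each in Mx, G-DP, G/AA-DP and Neg. For 19 of them both libraries of the leading population were above all 26 others. Neither count was made over all rows tested, so both only describe these members and cannot be set against a background share. These were Krt1, Krt10, Sbsn, Dmkn, Casp14, Calm4, Elovl4, Klk7, Serpinb12 and Stfa3 in Epi, Krt80, Tgm5, Sprr1a and Abca12 in HF-SC, Tgm3, Sprr1b and Serpinb2 in HF-ORS, and Ivl and Calml3 in TAC. For the other members the leading population and its neighbour in rank overlapped. Among those named, Krt80 led only narrowly, at 65.42 FPKM in HF-SC replicate 2 and 65.39 in HF-ORS replicate 2. The mean levels (log2 of FPKM + 1) over the 14 populations followed those of Krt10 most closely in Krt1 (r = 0.979), Stfa3 (0.978), Clca2 (0.969), Casp14 (0.964) and Krt77 (0.944). They followed it least in S100a8 (-0.355), Cnfn (-0.0627), Calml3 (-0.0514), Ivl (0.111) and Tgm1 (0.183). These correlations describe 14 means which share the authors' processing and fall into keratinocyte and other sorts.

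Of the members, 13 lie in the epidermal differentiation gene cluster on chromosome 3, between S100a8 and Rptn (90669071 to 93399442, a span of 2730 kb). The table held 54 rows in this span. In Epi, 24 of the 54 were listed at 0 in both libraries and 3 reached 10 FPKM in both, namely Sprr4, Sprr1a and Pglyrp4, a peptidoglycan recognition protein gene that is not a member. There were 17 rows tested, and 5 of them were higher in Epi than in ORS (Sprr4, Sprr1b, S100a9, Lce6a and Pglyrp4) and 0 lower. Over all rows, 4.48% were called higher and 5.35% lower. The Sprr1b and S100a9 calls were lost when some libraries were left out, as given above. The members outside the cluster included all those above 200 FPKM in both Epi libraries: Krt1 and Krt77 on chromosome 15, Krt10 on chromosome 11, Krtdap and Dmkn on chromosome 7, Stfa3 on chromosome 16, Calm4 on chromosome 13 and the row named Clca2 elsewhere on chromosome 3.

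**Figure D5:**
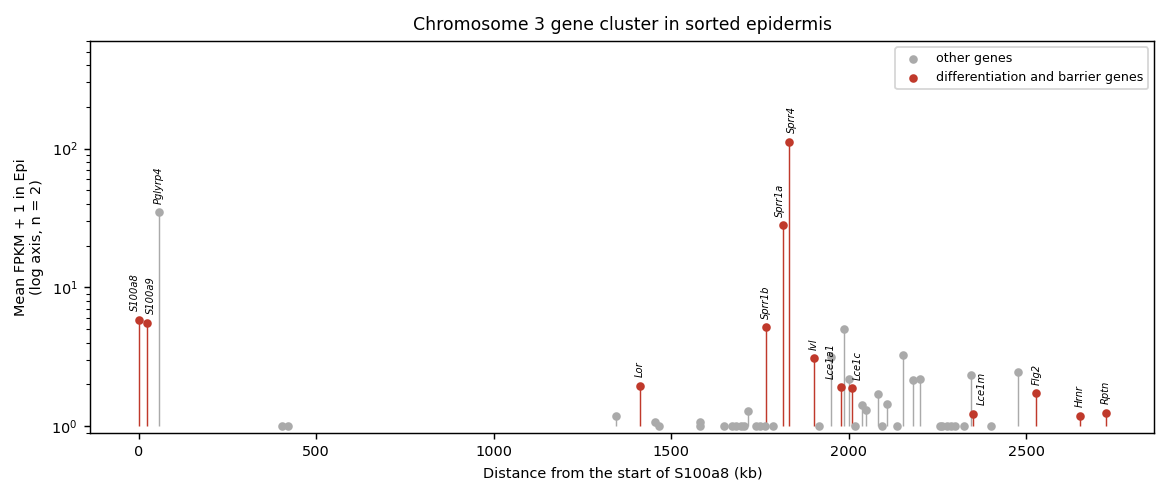
Mean FPKM + 1 in Epi (n = 2, log axis) of the 54 rows in the chromosome 3 cluster against their distance in kb from the start of S100a8. Members are red and other genes grey; Sprr4, Sprr1a and Pglyrp4 rise above 10, and the Lce and filaggrin-related genes to the right stay close to 1, which stands for 0 FPKM.

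Related genes outside the list, from lists of other barrier genes, gave smaller shares than the members. Over all rows, 4.48% were called higher in Epi than in ORS and 5.35% lower, and each of these lists was above the former share. Of 13 other cornified envelope and desmosome genes tested, of 36 listed, 5 were higher in Epi than in ORS and 0 lower. Among them were Pkp1 (plakophilin 1), at 549 and 455 FPKM in Epi and 69.7 and 63.2 in ORS, and Gltp, a glycolipid transfer protein gene, at 302 and 229 in Epi and 55.1 and 34.6 in ORS. Of 20 other lipid barrier genes, 9 were higher and 0 lower, among them the ceramidase gene Acer1, at 9.26 and 15.2 FPKM in Epi and 0.633 and 1.05 in ORS. Of 18 other proteases and inhibitors, 7 were higher and 0 lower, among them the kallikreins Klk11, at 26.3 and 24.8 FPKM in Epi and 0.587 and 0.212 in ORS, and Klk8, at 21.3 and 16.3 in Epi and 0.671 and 0.201 in ORS.

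Of 28 regulators of differentiation, 7 were higher in Epi than in ORS and 1 was lower, beside 4.48% of all rows higher and 5.35% lower. Klf4, a factor needed for barrier formation, was at 110 and 72.9 FPKM in Epi and 16.4 and 12.2 in ORS. Vdr, the vitamin D receptor gene, was the lower one, at 28.8 and 20.5 FPKM in Epi and 222 and 238 in ORS (log2 change -3.19 ± 0.36, adjusted p = 2.71e-06). Stress keratins are those that keratinocytes raise in wounds and in hyperproliferative skin, and 2 of the 4 were higher in Epi than in ORS. Krt16 was at 113 and 51.6 FPKM in Epi and 1.35 and 0.906 in ORS (log2 change 5.20 ± 0.51, adjusted p = 4.43e-07), and Krt6b at 6.48 and 1.04 in Epi and 0 in both ORS libraries (adjusted p = 0.000721). Krt6a and Krt17 were not called there (adjusted p = 0.332 and 0.177), Krt17 being at 176 and 111 FPKM in Epi and 451 and 325 in ORS. Of 8 basal keratinocyte markers, 5 were higher in Epi than in ORS and 0 lower, Krt14 being at 6264 and 4486 FPKM in Epi and 484 and 442 in ORS (log2 change 3.52 ± 0.52, adjusted p = 7.73e-05). Basal genes were thus also higher in Epi, by a smaller log2 change than that of Krt1, Krt10 or Stfa3; the difference between these changes was not tested.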

How the data were processed

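Values are FPKM per gene as deposited by the authors, who per the submitters' processing notes used TopHat2 2.0.3, Bowtie2, Cufflinks 2.1.1 and the mm10 build. Their gene annotation, and any filter on low genes, is not given in the sources read. Of 23235 rows, 220 identical to another were dropped. FPKM are not counts, and whole reads could not be recovered from their steps, so no interval on counting error is given. Groups come from the sample labels. All 28 libraries were fitted with 14 group means in limma 3.58.1 (R 4.3.3) on log2(FPKM + 1), with trended empirical Bayes variances, over 15052 rows with at least 1 FPKM in 2 libraries or more. Fold changes are on this scale, which understates low genes, and adjusted p-values (Benjamini-Hochberg) come from this fit. No fold is given against a group listed at 0. On simulated data for Epi against ORS the fit was tested before use. Alternatives were a pseudocount of 0.1 or 5, no filter, a filter at 5 FPKM, quantile normalization, a replicate block, the 16 K14-H2BGFP libraries alone, and each library left out. Genes outside the list are named by rule: in each list the 4 with the largest called change in Epi over ORS, plus every basal, stress keratin and neutrophil or myeloid marker; some are not reported here. Pglyrp4, Lce6a, Clca5, Clca1 and Stfa1 were chosen after their values were seen, as were the 6 promoters. The members and lists were chosen with earlier results of these data known. Promoters and positions are from RefSeq GRCm38.p6.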

Additional observations from a re-analysis of the deposited data

How the results depend on the processing

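No call of a member changed direction: of 1070 repeats of a single call under an alternative, 889 stayed past the threshold and 181 did not. Of the 38 members, 7 were called in Epi against HF-ORS, and the count was 4 with a pseudocount of 0.1 and 11 with one of 5. For HF-SC against HF-ORS it was 10, and 4 with a pseudocount of 0.1. For Mx against ORS it was 4, and 0 with a pseudocount of 0.1, 2 without the filter on low values, and 2 after quantile normalization. For TAC against Mx it was 1, and 0 with a pseudocount of 0.1, 2 with one of 5, 0 without the filter, 0 after quantile normalization, and 0 when the 16 K14-H2BGFP libraries were fitted alone. For DF against DP it was 4, and 1 with a pseudocount of 5. With each library left out in turn, counts ran from 17 to 21 in Epi against ORS, from 16 to 17 in Epi against Mx, from 21 to 23 in Epi against Neg, from 3 to 6 in Epi against HF-ORS, from 5 to 13 in HF-SC against HF-ORS, from 0 to 2 in Mx against ORS, from 0 to 1 in TAC against Mx, and from 1 to 6 in DF against DP. Leaving out 1 library leaves its population with a single one, whose spread is assumed to be like that of the others. Apart from the smaller number of libraries in those fits, the cause of these changes was not tested.

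Replicate numbers do not pair the samples by any label. Same-numbered samples deviated together at r over 0.1 in 27 of 28 pairs of the K14-H2BGFP line. Over all 28 pairs r was 0.0574 to 0.275. In the single pairs of the other lines r was 0.285 (Sox2-GFP), 0.283 (Crabp1-GFP) and 0.071 (K14-RFP Sox9-GFP). With the replicate number as a block, 7 members were called in Mx against ORS, 2 in TAC against Mx, 26 in Epi against ORS, 23 in Epi against Mx, 27 in Epi against Neg, 8 in Epi against HF-ORS, 15 in HF-SC against HF-ORS and 5 in DF against DP. Under the block Krt10 in Epi against HF-ORS and S100a9 in Epi against ORS were not called. With 2 libraries per population and no known depth, the 8 members under the filter, among them Flg2, Hrnr and the Lce1 genes, cannot be ranked between populations.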

Other observations

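Close relatives of 2 members were seen in the same table, and were chosen after their values were seen. The RefSeq gene now named Clca2 corresponds to the row Clca5, which stood at 18.6 and 27.7 FPKM in Epi, 1.47 and 1.41 in HF-SC, 22.9 and 21.8 in HF-ORS, and 0.0212 and 0.150 in ORS. The row Clca1 lies at Clca3a1, a near-identical relative of Clca3a2, and read 53.1 and 92.5 FPKM in Epi, so fragments may be shared between the rows. The stefin A relative Stfa1 was at 1.51 and 4.44 FPKM in Epi, 76.1 and 104 in HF-SC, 348 and 880 in HF-ORS, and 0 in both ORS libraries. Both its Epi libraries were thus below both its HF-ORS libraries, the reverse of Stfa3, and the division of fragments between these copies was not tested.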
